A study of Mus musculus with 12 samples.

Results

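The 9 genes described here encode the subunits of the AMPA receptors (Gria1, Gria2, Gria3 and Gria4) and of the kainate receptors (Grik1, Grik2, Grik3, Grik4 and Grik5), and were taken by gene symbol from the 24421 genes of the count files. They were measured by RNA sequencing of polyadenylated RNA from the dorsal hippocampus of male mice, 4 to 5 months old, of the strain 129sv/C57BL/6j. The 12 libraries, each with an animal number of its own in its title, fell into 4 groups of 3: trained Mbnl2 KO, house control Mbnl2 KO, trained Mbnl2 WT and house control Mbnl2 WT. Mbnl2 belongs to the muscleblind-like family of RNA-binding proteins, which control alternative splicing, and the comparisons address which transcripts differ with its genotype, with training and with the combination. The labels describe neither the targeted allele nor the training task nor the time from training to dissection, which limits what the groups stand for.

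AMPA and kainate receptors are cation channels opened by glutamate, and each is an assembly of subunits around a central pore. AMPA receptors carry most fast excitatory transmission in the hippocampus, and their number at synapses changes in long-term potentiation and depression. Kainate receptors act before and after the synapse, with a known concentration at mossy fibre synapses between dentate granule cells and CA3 pyramidal neurons. Grik1, Grik2 and Grik3 encode the GluK subunits that can form channels without partners, while Grik4 and Grik5 encode the high-affinity subunits that need a partner from that group.

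The stretch of coding sequence below lines the pore, and it is shown because a single codon in it sets calcium permeability. In Gria2, and in part of the Grik1 and Grik2 transcripts, adenosine deaminases edit this glutamine codon in the RNA so that it reads as arginine, which makes Gria2-containing receptors nearly impermeable to calcium. The capitals mark that codon in 45 bases of the reference coding sequence (GENCODE transcripts, genome build GRCm38, also called mm10), 5′ to 3′ on the strand of each gene.
Gria1: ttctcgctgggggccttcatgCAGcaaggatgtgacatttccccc
Gria2: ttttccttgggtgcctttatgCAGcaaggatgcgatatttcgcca
Gria3: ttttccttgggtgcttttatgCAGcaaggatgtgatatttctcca
Gria4: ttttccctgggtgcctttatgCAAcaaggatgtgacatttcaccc
Grik1: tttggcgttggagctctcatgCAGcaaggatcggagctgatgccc
Grik2: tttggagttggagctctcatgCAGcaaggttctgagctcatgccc
Grik3: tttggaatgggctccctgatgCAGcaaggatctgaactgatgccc
Grik4: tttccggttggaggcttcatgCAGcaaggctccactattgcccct
Grik5: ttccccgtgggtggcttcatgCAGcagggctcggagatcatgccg

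The genome writes glutamine at this codon in all 9 genes, as CAG in 8 of them and as CAA in Gria4. Gria2 and Gria3 differed at 3 of the 45 bases, the fewest of the 36 pairs of genes, and Grik1 and Grik2 at 4. Grik3 and Grik4 differed at 21, the most. Over the annotated transcript sequences of each gene, 7 of the 36 pairs shared any run of 50 bases, and at most 0.127% of the runs of the gene with fewer runs were shared. Counts per gene do not read the edited codon, so editing was not analysed here.

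The AMPA receptor genes also carry a pair of alternative exons in the ligand-binding domain, known as flop (upstream) and flip (downstream), whose choice changes desensitisation. They are shown for Gria2 because a gene-level count sums reads of both, and a change in their ratio would leave the count as it is. The pair lies on the minus strand at chr3:80691320-80691434 (flop) and chr3:80690404-80690518 (flip), mm10, with 36 of 115 bases different between the exons, in capitals.
Gria2 flop exon: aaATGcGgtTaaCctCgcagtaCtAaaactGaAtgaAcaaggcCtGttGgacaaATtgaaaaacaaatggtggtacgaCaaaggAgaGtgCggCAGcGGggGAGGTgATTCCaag
Gria2 flip exon: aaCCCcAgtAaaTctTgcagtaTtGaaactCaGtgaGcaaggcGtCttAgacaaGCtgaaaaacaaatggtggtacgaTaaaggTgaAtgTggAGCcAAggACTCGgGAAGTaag

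All 9 genes passed the filter on low counts. Library totals ran from 19737929 to 27427076 counts, and the 9 genes together took 0.225% to 0.362% of them. Levels below are in CPM, which are counts scaled to library size. Differences are log2 fold changes from edgeR's quasi-likelihood test, called at a Benjamini-Hochberg adjusted p under 0.05 over 15622 genes.

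The targeted gene, Mbnl2, had 509, 473 and 542 CPM in trained and 488, 470 and 454 CPM in house control libraries labelled KO. It had 360, 363 and 365 CPM in trained and 338, 315 and 324 CPM in house control libraries labelled WT. Every library labelled KO therefore lay above every library labelled WT, which goes against a loss of the transcript. These counts sum all exons and the deleted part is not described in the labels, so they do not check the genotype labels, and every direction below is that of the labels.

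Several libraries stood apart in markers of other tissue. Markers of CA1, CA3 and dentate granule neurons were counted in every library. The 6 CA1 markers summed to 745 to 806 CPM in KO trained, 445 to 803 CPM in KO house control, 325 to 618 CPM in WT trained and 273 to 557 CPM in WT house control libraries, so the trained genotypes did not overlap. The 8 leptomeningeal fibroblast markers summed to 88.4 to 272 CPM in KO trained, 46.5 to 288 CPM in KO house control, 66.3 to 598 CPM in WT trained and 388 to 972 CPM in WT house control libraries, so the house control genotypes did not overlap in the sum. Igf2 was 828 of the 972 CPM in WT house control replicate 3. Of the single markers, Igf2, Ogn and Slc22a6 kept the house control genotypes apart, while Dcn, Lum, Col1a1, Col1a2 and Slc6a13 overlapped. Col1a1 had 26.4 CPM in KO house control replicate 3, against 12.2 CPM in WT house control replicate 2. The 9 markers of striatum and septum summed to 1013 CPM in KO trained replicate 2, 852 CPM in KO house control replicate 2 and 643 CPM in WT house control replicate 3, against 166 to 287 CPM in the other libraries. The 6 neocortex markers summed to 261 and 244 CPM in replicate 2 of KO trained and of KO house control, against 119 to 158 CPM in the others. The 10 choroid plexus markers ran from 72.1 to 4747 CPM in KO trained, 73.0 to 2678 CPM in KO house control, 51.2 to 7937 CPM in WT trained and 113 to 15215 CPM in WT house control libraries, the highest of which were WT house control replicates 3 and 2 (8054 CPM). The 8 oligodendrocyte markers ran from 2754 to 13400 CPM, and the 8 thalamus markers, with Shox2 at 0 in WT trained replicate 2, from 53.9 to 372 CPM. Of these lists, no other marker was at 0 in any library. In bulk tissue, fewer cells of a type and less RNA per cell cannot be told apart.

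Per length of exon, Gria1 was the most abundant of the 9 transcripts and Grik1 the least. Gria1, which encodes the GluA1 subunit, averaged 211 ± 42.9 CPM per kb of merged exons (SD over 12 libraries). Grik5, encoding the high-affinity GluK5 subunit, averaged 70.1 ± 10.7 CPM per kb, and Gria2, encoding GluA2, 62.9 ± 9.84 CPM per kb. Gria3 followed at 24.3 ± 3.27 CPM per kb. Grik4 had 10.1 ± 2.28 CPM per kb, Gria4 8.98 ± 1.84 CPM per kb and Grik3 6.97 ± 3.30 CPM per kb. Grik2 had 4.36 ± 1.14 CPM per kb and Grik1 1.17 ± 0.341 CPM per kb, which Grik2 exceeded in 12 of 12 libraries.

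Gria1 stood above all others, Gria3 stood apart from both of its neighbours, and Grik1 lay below Grik2, in 12 of 12 libraries. The ranges of Grik5 and Gria2 overlapped, with Grik5 higher in 9 of 12 libraries. The ranges of Grik4, Gria4, Grik3 and Grik2 overlapped each with the next in order. With the length of the longest transcript in place of merged exons, 5 of the 9 genes kept their rank. Gria2, at 94.3 CPM per kb, then stood above Grik5, at 89.2 CPM per kb, and Gria4 and Grik4 changed places at 10.4 and 10.2 CPM per kb.

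**Figure D1:**
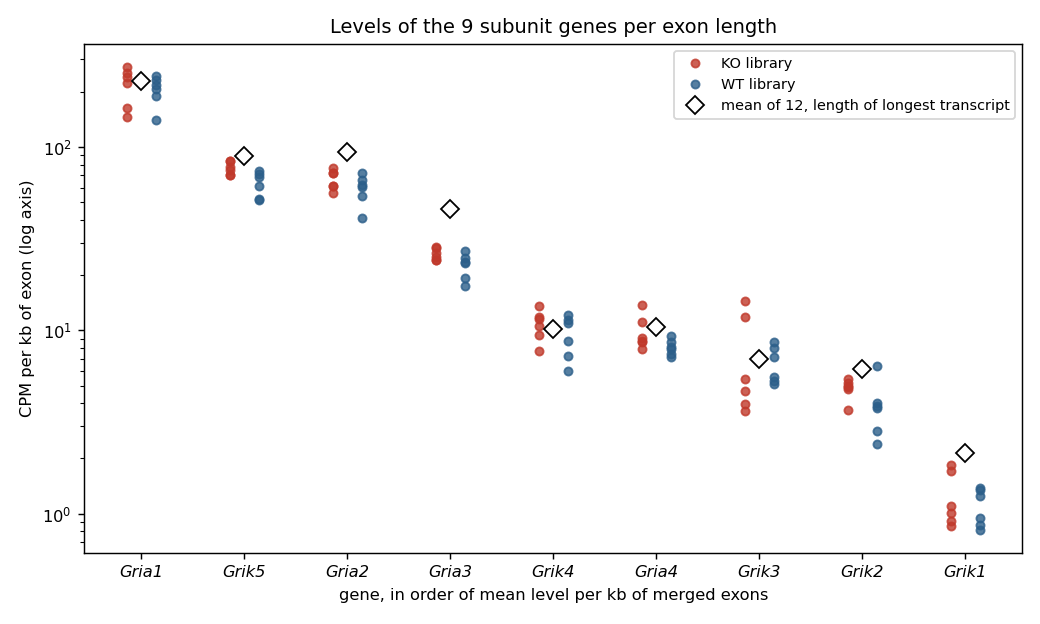
Levels of the 9 subunit genes in CPM per kb of merged exons, on a log axis, with a point for each of the 6 libraries labelled KO (red, left) and the 6 labelled WT (blue, right), and a diamond for the mean of 12 with the length of the longest transcript. Gria1 lies above all others at 139 to 272 CPM per kb, and Grik1 lies lowest at 0.818 to 1.84 CPM per kb.

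Within the AMPA receptor genes, Gria1 made up most of the length-corrected level. Its share was 67.3 ± 4.30% in KO trained, 67.3 ± 5.62% in KO house control, 69.5 ± 0.446% in WT trained and 69.2 ± 1.72% in WT house control libraries (SD, n = 3 each). Over 12 libraries Gria2 had a share of 20.6 ± 1.33%, Gria3 8.03 ± 1.05% and Gria4 3.08 ± 1.15%. These shares are per kb of merged exons. With the length of the longest transcript they were 60.0 ± 3.52% for Gria1, 24.9 ± 1.31% for Gria2, 12.2 ± 1.45% for Gria3 and 2.87 ± 1.04% for Gria4. In CPM, the level of Gria1 was 1.30 to 1.42 times that of Gria2 in 10 libraries, and 1.04 and 1.01 times in KO trained replicate 2 and KO house control replicate 2. Within the kainate receptor genes, Grik5 had 75.6 ± 2.32%, Grik4 10.9 ± 1.68%, Grik3 7.58 ± 3.28%, Grik2 4.67 ± 0.890% and Grik1 1.30 ± 0.462% per kb of merged exons. By the longest transcript they had 77.7%, 8.89%, 6.14%, 5.30% and 1.94%, in the same order. The share of Grik3 varied most between libraries, from 3.94% to 13.9%.

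For Gria1 and Gria2, the libraries labelled KO and WT overlapped in trained mice and in house controls. Gria1 (chr11:57011387-57330244, plus strand) had 1646, 989 and 1447 CPM in KO trained, 1537, 879 and 1355 CPM in KO house control, 1255, 1470 and 1310 CPM in WT trained and 1398, 1147 and 842 CPM in WT house control libraries. Gria2 (chr3:80681450-80802835, minus strand) had 1188, 949 and 1115 CPM in KO trained, 1124, 869 and 957 CPM in KO house control, 943, 1127 and 966 CPM in WT trained and 1025, 835 and 641 CPM in WT house control libraries. Both genes were lowest in WT house control replicate 3, and next lowest among the 12 came KO house control replicate 2 for Gria1 and WT house control replicate 2 for Gria2.

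Gria3 (chrX:41400854-41678601, plus strand), whose GluA3 subunit pairs mainly with GluA2, varied least of the 9 relative to its mean. It had 282, 261 and 276 CPM in KO trained, 249, 238 and 238 CPM in KO house control, 245, 265 and 230 CPM in WT trained and 233, 191 and 171 CPM in WT house control libraries. The 3 KO house control libraries lay above the 3 WT house control libraries, the 3 KO trained above the 3 KO house control, and the trained groups overlapped. Gria4 (chr9:4417896-4796234, minus strand) encodes GluA4, known in the hippocampus mainly from interneurons and early development. It had 54.4, 70.1 and 55.2 CPM in KO trained, 49.8, 87.0 and 57.2 CPM in KO house control, 49.9, 44.9 and 51.4 CPM in WT trained and 46.9, 54.2 and 58.6 CPM in WT house control libraries. KO house control replicate 2 and KO trained replicate 2 were its highest libraries, and the 3 KO trained libraries lay above the 3 WT trained ones.

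Among the principal kainate receptor genes, levels were low and the spread wide. Grik1 (chr16:87895900-88290265, minus strand) encodes GluK1, known in the hippocampus mainly from interneurons. It had 5.74, 11.5 and 6.80 CPM in KO trained, 6.15, 12.4 and 7.38 CPM in KO house control, 8.38, 5.50 and 6.36 CPM in WT trained and 5.86, 9.08 and 9.25 CPM in WT house control libraries. Grik2 (chr10:49094833-49788766, minus strand) encodes GluK2, the main channel-forming subunit at mossy fibre synapses. It had 65.2, 65.7 and 72.3 CPM in KO trained, 63.6, 48.6 and 68.0 CPM in KO house control, 53.2, 51.2 and 37.6 CPM in WT trained and 85.1, 50.1 and 31.9 CPM in WT house control libraries. The 3 KO trained libraries lay above the 3 WT trained ones in Grik2, while the WT house control libraries held both the highest and the lowest value of the 12.

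Grik3 (chr4:125490700-125714173, plus strand), which encodes the low-affinity subunit GluK3, had the widest range of the 9, with its highest library 3.98 times its lowest. It had 41.9, 129 and 35.4 CPM in KO trained, 49.0, 107 and 32.5 CPM in KO house control, 45.6, 77.2 and 47.7 CPM in WT trained and 71.7, 64.1 and 49.7 CPM in WT house control libraries. Replicate 2 of each KO group was high, and the other 4 libraries labelled KO were among the 6 lowest of the 12.

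Of the high-affinity subunits, Grik4 (chr9:42518135-42944493, minus strand) had 81.4, 46.2 and 70.8 CPM in KO trained, 63.2, 55.9 and 68.3 CPM in KO house control, 68.1, 72.0 and 52.0 CPM in WT trained and 65.6, 36.0 and 43.0 CPM in WT house control libraries. Its groups overlapped in every pairwise comparison. Grik5 (chr7:25009849-25072346, minus strand) had 435, 387 and 403 CPM in KO trained, 434, 364 and 365 CPM in KO house control, 357, 370 and 316 CPM in WT trained and 383, 268 and 266 CPM in WT house control libraries. The 3 KO trained libraries lay above the 3 WT trained ones, and in house controls WT replicate 1 lay above 2 of the 3 libraries labelled KO.

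**Figure D2:**
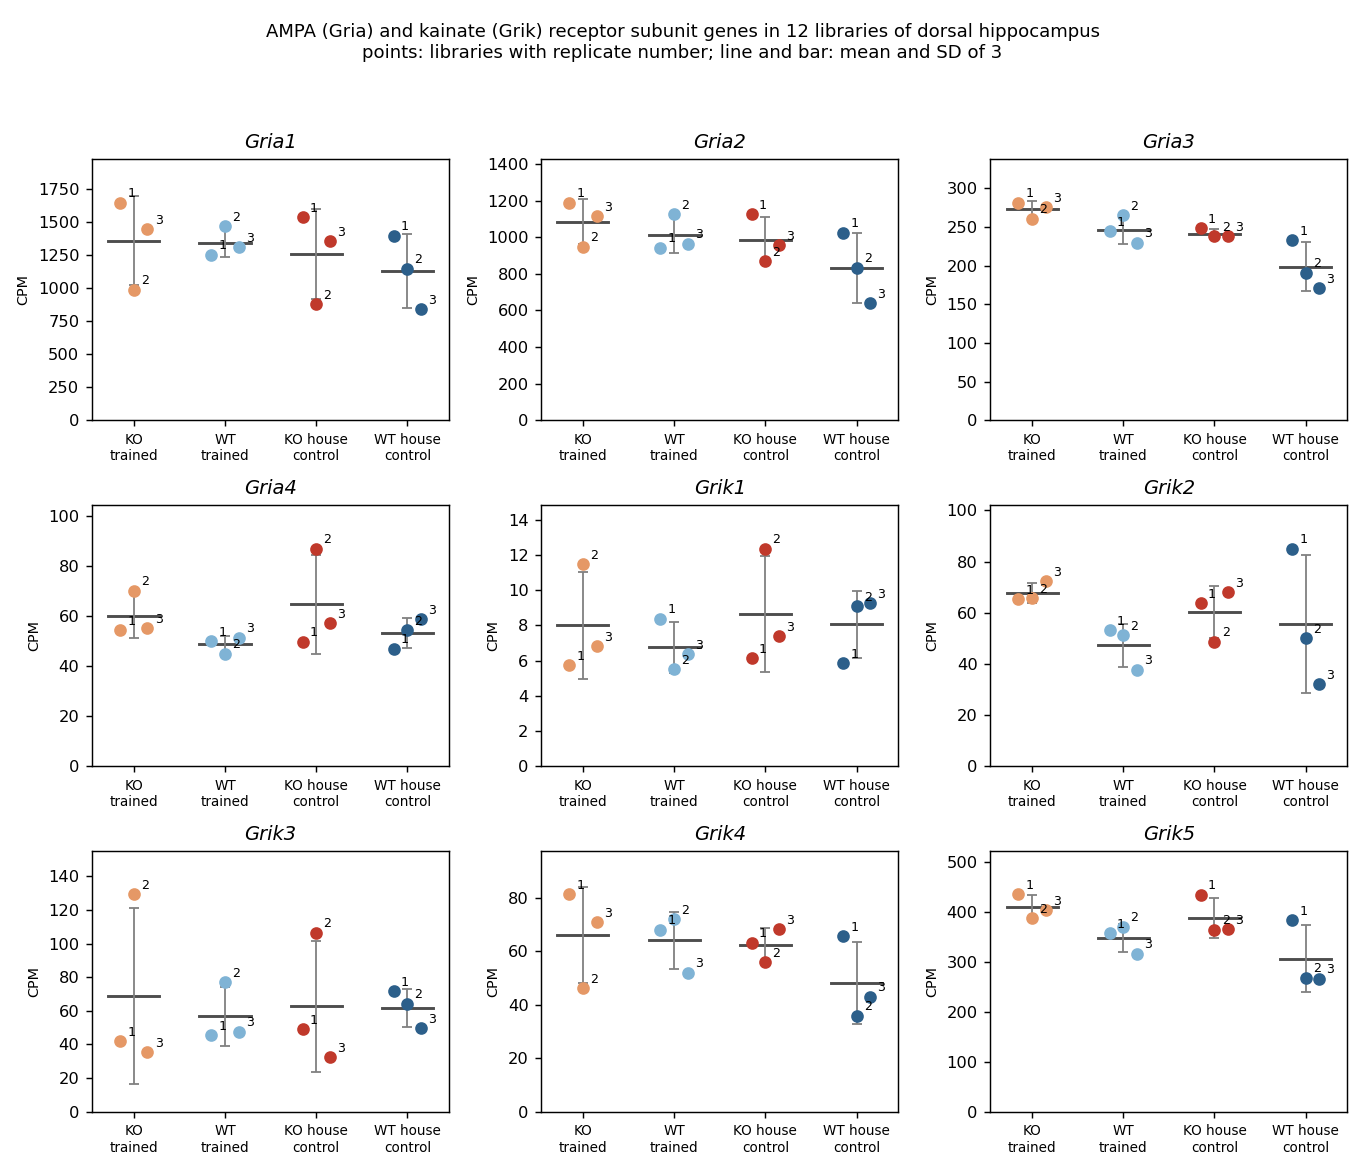
Levels in CPM of the 9 subunit genes in each of 12 libraries, with the replicate number beside each point and the mean and SD of the 3 libraries of a group as line and bar; KO and WT are the labelled genotypes. In Grik3, replicate 2 of the KO trained and KO house control groups lies at 129 and 107 CPM while the other libraries labelled KO lie between 32.5 and 49.0 CPM.

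No subunit gene passed the test between the genotypes. In house controls 0 of 9 were called by edgeR and 0 by DESeq2, beside a background of 0.0128% called among all genes by edgeR and 1.29% by DESeq2. At an unadjusted edgeR p under 0.05 there were 2 of 9, beside 10.7% of all genes. In trained mice 0 of 9 were called by either tool, beside 0.0128% (edgeR) and 0.679% (DESeq2) of all genes, and 0 of 9 had an unadjusted edgeR p under 0.05, beside 6.45%. Averaged over both treatments, with 6 libraries labelled KO and 6 labelled WT, 0 of 9 were called by either tool, beside 0.576% and 4.64% of all genes, and 2 had an unadjusted edgeR p under 0.05, beside 14.4%.

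The log2 fold change, KO over WT, was above 0 for 9 of 9 genes in house controls, in trained mice and in their average, beside 49.8%, 47.6% and 48.0% of all genes. The average is made of the other comparisons and does not add to them. The 9 genes are correlated between libraries, some rising together and some running opposite, so their signs are not independent of each other. The median over the 9 genes was 0.24 in house controls, 0.23 in trained mice and 0.21 in the average, beside medians over all genes of -0.00079, -0.01 and -0.0081. The summed CA1 markers were higher in every KO trained than in every WT trained library. The summed leptomeningeal markers were lower in every KO house control than in every WT house control library, though Dcn, Lum, Col1a1, Col1a2 and Slc6a13 overlapped singly. The part of either list in these values was not tested. The sign of 5 of the 9 averages depended on the libraries that entered, as described below for each.

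Of the AMPA receptor genes, Gria1 had an averaged genotype difference below its SE. It averaged 1309 ± 308 CPM in libraries labelled KO and 1237 ± 223 CPM in those labelled WT (SD, n = 6 each), with a log2 fold change of 0.09 (SE 0.18) and a fold of 1.06 (95% interval 0.808 to 1.39). Gria2 averaged 1034 ± 126 CPM in KO-labelled and 923 ± 168 CPM in WT-labelled libraries (log2 fold change 0.17 with SE 0.12, interval of the fold 0.933 to 1.35). The value for Gria2 was 0.10 without WT house control replicate 3, 0.26 without WT house control replicate 1, 0.074 in the first series of animal numbers alone and 0.028 without KO house control replicate 3 and replicates 2 and 3 of the WT house controls. For Gria1 the value was -0.06 in the first series of animal numbers alone and -0.10 without the 3 libraries with the highest thalamus markers (KO house control replicate 3 and replicates 2 and 3 of the WT house controls). Leaving these 3 out kept replicate 1 as the only WT house control, here and wherever they are left out below.

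Gria3 averaged 257 ± 18.8 CPM in libraries labelled KO and 223 ± 34.9 CPM in those labelled WT, a log2 fold change of 0.21 (SE 0.08, interval of the fold 1.03 to 1.30, edgeR adjusted p = 0.226). Gria4 averaged 62.3 ± 13.9 CPM in KO-labelled and 51.0 ± 4.99 CPM in WT-labelled libraries, a log2 fold change of 0.29 (SE 0.13, interval of the fold 0.995 to 1.5). Without KO house control replicate 2 and KO trained replicate 2, the libraries with the highest striatum, septum and neocortex markers, the value for Gria4 was 0.10, and with any 1 library left out it ran from 0.16 to 0.37.

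For the kainate receptor genes, Grik5 had the smallest p. It averaged 398 ± 31.8 CPM in libraries labelled KO and 327 ± 51.4 CPM in those labelled WT, a log2 fold change of 0.29 (SE 0.10, interval of the fold 1.04 to 1.43, edgeR adjusted p = 0.226). The adjusted p of Gria3 and Grik5 came to 0.0859 and 0.0932 by DESeq2. Without WT house control replicate 1 alone, edgeR called 2 of the 9 genes, Gria3 (log2 fold change 0.28, adjusted p = 0.0435) and Grik5 (log2 fold change 0.39, adjusted p = 0.0339), and no other left-out library gave a call. In the first series of animal numbers alone, with 8 libraries, the log2 fold changes were 0.14 for Gria3 and 0.24 for Grik5, with adjusted p = 0.778 and 0.747. The second series has 1 library per group and was not fitted alone. Without the 3 libraries with the highest thalamus markers the log2 fold changes were 0.10 for Gria3 and 0.14 for Grik5, and the part of those transcripts in the differences was not tested.

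The other kainate receptor genes changed sign with the libraries used. Grik1 had a log2 fold change of 0.17 (SE 0.23), Grik2 0.31 (SE 0.20), Grik3 0.15 (SE 0.37) and Grik4 0.21 (SE 0.17). The 95% interval of the fold was 0.788 to 1.61 for Grik1, 0.908 to 1.70 for Grik2, 0.627 to 1.96 for Grik3 and 0.886 to 1.51 for Grik4, and each of these intervals holds folds on both sides of 1. Without the 2 libraries with the highest striatum, septum and neocortex markers, Grik1 had -0.17 and Grik3 -0.57. WT house control replicate 3, at 643 CPM of striatum and septum markers, was kept in that fit. Leaving out KO house control replicate 2 alone gave -0.15 for Grik3, and leaving out KO trained replicate 2 alone gave -0.26. With any 1 library left out, Grik2 ran from 0.18 to 0.53. Without the 3 libraries with the highest thalamus markers, Grik2 had -0.04 and Grik4 -0.05.

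Within house controls, Gria3 averaged 242 ± 6.10 CPM in KO-labelled and 199 ± 31.7 CPM in WT-labelled mice (n = 3 each; log2 fold change 0.28 with SE 0.11 and edgeR adjusted p = 0.400). Grik5 averaged 387 ± 40.1 CPM in KO-labelled and 306 ± 67.2 CPM in WT-labelled house controls (log2 fold change 0.34 with SE 0.14 and edgeR adjusted p = 0.448). Without WT house control replicate 1 the value was 0.42 for Gria3 and 0.54 for Grik5, and with any other 1 of the 6 libraries left out 0.19 to 0.30 and 0.25 to 0.39. Without the 3 libraries with the highest thalamus markers the values were 0.059 and 0.055, with WT house control replicate 1 as the only WT library left. Of the 9 genes, 1 (Gria3) had all 3 libraries labelled KO above all 3 labelled WT, beside 6.94% of all genes.

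Within trained mice, 3 genes (Gria4, Grik2 and Grik5) had all 3 libraries labelled KO above all 3 labelled WT, beside 7.61% of all genes. The summed CA1 markers separated the same libraries in the same direction, at 745 to 806 CPM in KO trained and 325 to 618 CPM in WT trained libraries, and their part in this was not tested. Grik2 averaged 67.7 ± 3.99 CPM in KO-labelled and 47.3 ± 8.43 CPM in WT-labelled mice (log2 fold change 0.52 with SE 0.29 and edgeR adjusted p = 0.839). The authors' deposited table gives Grik2 a log2 fold change of 0.51 with an adjusted p of 0.0982 in this comparison, the smallest that any of the 9 genes has in their 4 tables. The log2 fold change was 0.30 (SE 0.19) for Gria4 and 0.23 (SE 0.14) for Grik5, with edgeR adjusted p = 0.882 and 0.875. Without KO trained replicate 2 the value for Gria4 was 0.18, and the value for Grik2 was 0.38 without WT trained replicate 3 and 0.33 in the first series of animal numbers alone.

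**Figure D3:**
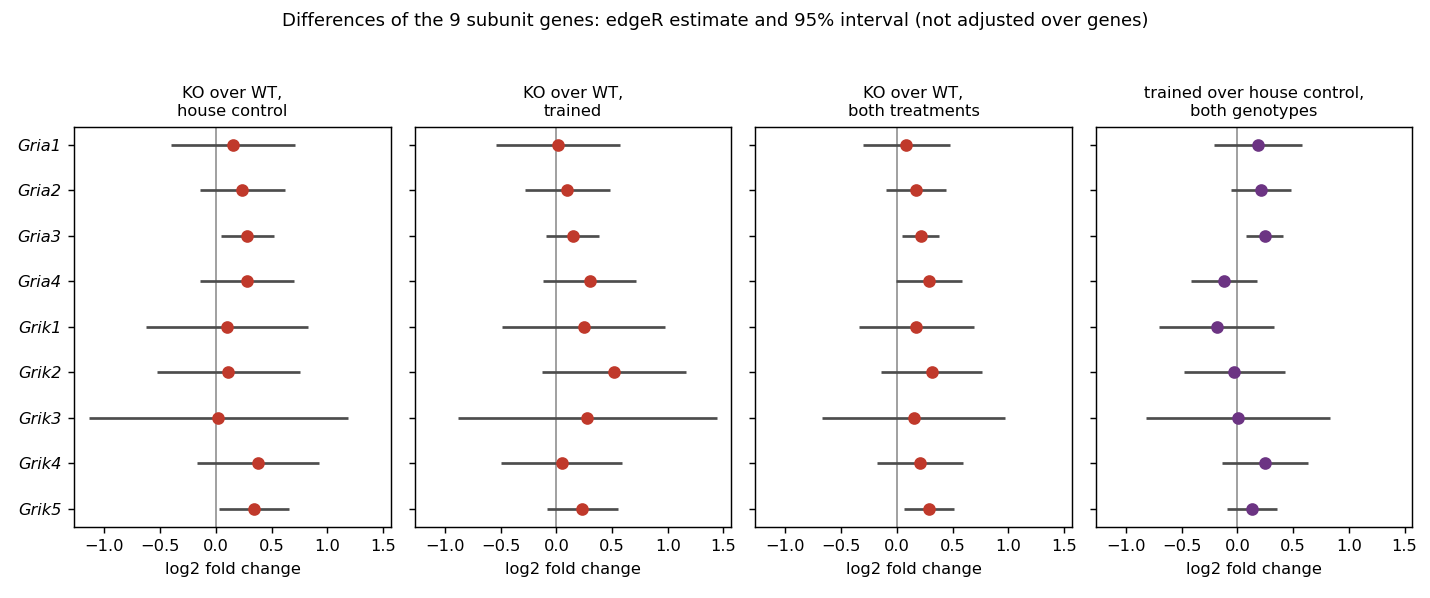
Log2 fold changes of the 9 subunit genes with 95% intervals not adjusted over genes, for KO over WT in house controls, in trained mice and averaged over both, and for trained over house control averaged over both genotypes. The genotype estimates lie right of 0 in all 3 genotype panels, from 0.02 to 0.52, and most intervals span 0.

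Training was followed by no called change in the 9 genes. Of WT-labelled mice, 0 of 9 were called by edgeR and 0 by DESeq2, beside 0% and 0.102% of all genes, with 1 of 9 at an unadjusted edgeR p under 0.05, beside 9.82%. Of KO-labelled mice, 0 of 9 were called by either tool, beside 0% and 0.0448% of all genes, with 0 of 9 at an unadjusted p under 0.05, beside 3.01%. Averaged over the genotypes, 0 of 9 were called by either tool, beside 0% and 0.442% of all genes, and 1 had an unadjusted p under 0.05, beside 11.2%.

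Of the 9 genes, Gria3 had the smallest p in the training comparison of WT-labelled mice and in the average. It averaged 260 ± 19.5 CPM in trained and 220 ± 31.2 CPM in house control libraries (n = 6 each), a log2 fold change of 0.24 (SE 0.08, interval of the fold 1.05 to 1.33, edgeR adjusted p = 0.414). In WT-labelled mice it averaged 247 ± 17.9 CPM trained and 199 ± 31.7 CPM in house controls (log2 fold change 0.31 with SE 0.11 and edgeR adjusted p = 0.502). That value ran from 0.22 to 0.45 with any 1 of the 6 libraries left out. It was 0.082 without the 3 libraries with the highest thalamus markers, a fit with replicate 1 as the only WT house control. In KO-labelled mice it averaged 273 ± 10.6 CPM trained and 242 ± 6.10 CPM in house controls (log2 fold change 0.18 with SE 0.11 and edgeR adjusted p = 1), with no overlap between the groups, as in 3.34% of all genes. In the first series of animal numbers alone the averaged value of Gria3 was not called either, and over all alternatives it ran from 0.12 to 0.31.

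The 9 averaged training differences ran from -0.19 to 0.25 on the log2 scale, 6 of them above 0, beside 47.7% of all genes. The difference between the training responses of the genotypes (the interaction) ran from -0.33 to 0.41 over the 9 genes. None was called by edgeR or DESeq2, 0 had an unadjusted edgeR p under 0.05, and the background was 0% called by either tool and 1.5% at that unadjusted p. These contrasts share libraries with those above.

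Of 40 genes whose products assemble, carry, anchor or edit these receptors, all 40 passed the filter and 1 rose with the KO label (averaged over both treatments, edgeR), which is 2.5% beside 0.576% of all genes. Nptx2 encodes neuronal pentraxin 2, a secreted protein that clusters AMPA receptors at synapses and is induced by activity. It had 73.6, 69.8 and 77.7 CPM in KO trained, 65.8, 64.1 and 83.3 CPM in KO house control, 61.9, 49.7 and 51.5 CPM in WT trained and 45.3, 36.0 and 36.2 CPM in WT house control libraries. All 6 libraries labelled KO lay above all 6 labelled WT, as in 1.06% of all genes. Nptx2 averaged 72.4 ± 7.31 CPM in KO-labelled and 46.8 ± 9.92 CPM in WT-labelled libraries, a log2 fold change of 0.65 (SE 0.09, fold 1.57, edgeR adjusted p = 0.0225). The other secreted synaptic organisers listed did not share this direction as a group. Of the 5 in that list, Nptx2 included, 2 had an averaged value above 0, beside 48.0% of all genes. Their median was -0.24 and their range -0.68 to 0.65. In trained mice 1 of the 5 was above 0, beside 47.6% of all genes, with a median of -0.44.

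Within a treatment, Nptx2 had a log2 fold change, KO over WT, of 0.86 (SE 0.13 and edgeR adjusted p = 0.108) in house controls and 0.44 (SE 0.13, adjusted p = 0.536) in trained mice. The authors' deposited tables give adjusted p-values of 0.000586 and 0.0560 for these comparisons. The interaction of Nptx2 was -0.42 (SE 0.18 and edgeR adjusted p = 1.00). Over the average, the value ran from 0.48 to 0.71 in all alternatives. The call was lost when any 1 of 4 libraries was left out, with adjusted p = 0.0547 without WT house control replicate 2, 0.0710 without KO trained replicate 1, 0.0542 without KO trained replicate 3 and 0.0811 without WT trained replicate 3. It was also lost in the first series of animal numbers alone (log2 fold change 0.52, adjusted p = 0.386). Without the 3 libraries with the highest thalamus markers, which left replicate 1 as the only WT house control, the log2 fold change was 0.48. The part of those libraries in it was not tested.

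Of the 15 auxiliary subunits of AMPA receptors, which bind the channel and set its trafficking and gating, 0 were called by edgeR over both treatments, 2 had an unadjusted p under 0.05 and 14 had a value above 0, with a median of 0.15, beside 0.576%, 14.4% and 48.0% of all genes and a median of -0.0081. Cacng3, a transmembrane regulatory protein of this class, had 51.4, 65.0 and 45.4 CPM in KO trained, 49.9, 53.7 and 33.9 CPM in KO house control, 34.7, 41.2 and 35.2 CPM in WT trained and 42.7, 35.3 and 33.2 CPM in WT house control libraries. Its log2 fold change, KO over WT, was 0.42 (SE 0.13), with an adjusted p of 0.173 by edgeR and 0.0432 by DESeq2. KO trained replicate 2 and KO house control replicate 2 were its highest libraries, and without them the value was 0.29 (edgeR adjusted p = 0.322). In trained mice the value was 0.54 (SE 0.18 and edgeR adjusted p = 0.632), and the authors' deposited table gives an adjusted p of 0.0982. Cacng2, which encodes stargazin, had 0.30 (SE 0.13 and edgeR adjusted p = 0.463) in house controls.

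Neto1, of the 2 auxiliary subunits of kainate receptors listed, slows channel closing. It averaged 163 ± 36.4 CPM in KO-labelled and 118 ± 31.4 CPM in WT-labelled libraries (log2 fold change 0.47 with SE 0.15, adjusted p = 0.193 by edgeR and 0.0522 by DESeq2), and without WT house control replicate 1 edgeR called it (0.60, adjusted p = 0.0449). Of the 5 proteins that assemble AMPA receptors in the endoplasmic reticulum, 0 were called over both treatments, beside 0.576% of all genes. Of these 5, 1 had an unadjusted edgeR p under 0.05 and 5 had a value above 0, beside 14.4% and 48.0% of all genes. Their median was 0.11, beside -0.0081 over all genes. Cpt1c averaged 145 ± 15.2 CPM in KO-labelled and 122 ± 15.3 CPM in WT-labelled libraries (log2 fold change 0.25 with SE 0.09 and edgeR adjusted p = 0.223).

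Of the 8 trafficking and anchoring proteins 0 were called, with 1 unadjusted p under 0.05 in each direction and 7 values above 0, beside the same background. Nsf, whose ATPase binds GluA2 and which membrane fusion needs in general, had a log2 fold change of -0.47 (SE 0.20 and edgeR adjusted p = 0.755) in trained mice, where it averaged 1114 ± 209 CPM in KO-labelled and 1545 ± 167 CPM in WT-labelled libraries. The 3 adenosine deaminases ran from -0.42 to -0.02 over both treatments with 0 called and 0 at an unadjusted p under 0.05. Of these Adarb1, which edits the pore codon of Gria2, averaged 252 ± 30.3 CPM in KO-labelled and 262 ± 34.0 CPM in WT-labelled libraries. Of the 2 delta receptor subunits 0 were called and 1 had an unadjusted p under 0.05, beside 0.576% and 14.4% of all genes. The 40 genes together had 32 values above 0 (80%, beside 48.0% of all genes), a median of 0.13 beside -0.0081, 1 called higher and 0 called lower, beside 0.576% of all genes called in either direction.

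**Figure D4:**
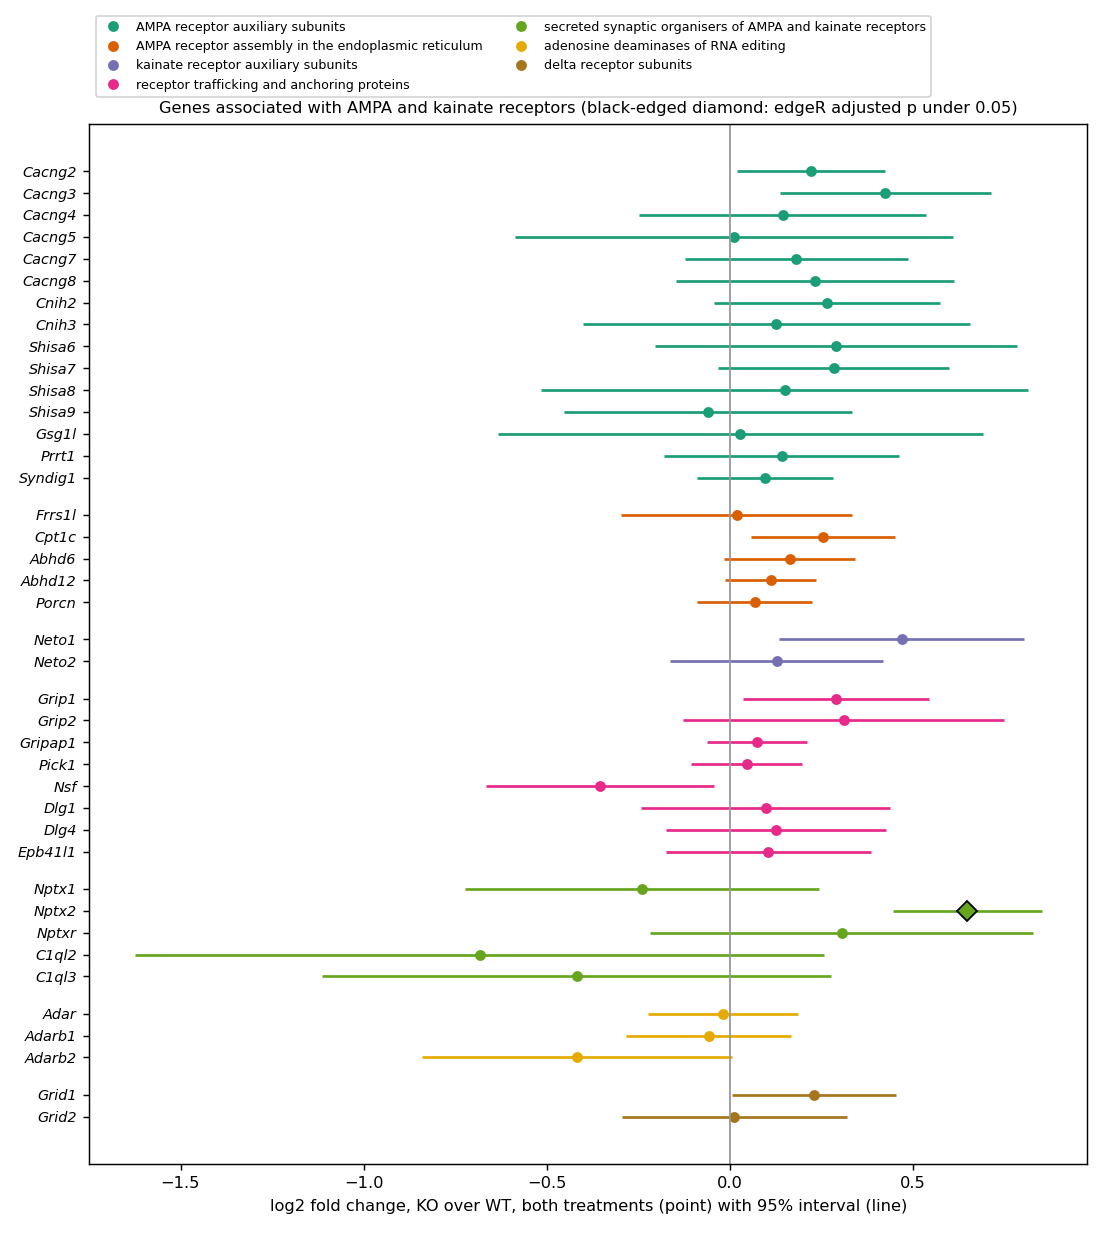
Log2 fold change, KO over WT averaged over both treatments, with its 95% interval, for the 40 associated genes coloured by list. Nptx2, the diamond at 0.65, is the gene past the threshold of 0.05 on the edgeR adjusted p.

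In the training comparisons 0 of the 40 genes were called by edgeR or DESeq2, with 6, 0 and 5 at an unadjusted edgeR p under 0.05 in WT-labelled mice, KO-labelled mice and the average, beside 9.82%, 3.01% and 11.2% of all genes. Neto1 averaged 163 ± 34.8 CPM in trained and 118 ± 33.2 CPM in house control libraries (log2 fold change 0.47 with SE 0.15 and edgeR adjusted p = 0.414). Frrs1l, which encodes an endoplasmic reticulum protein needed for AMPA receptor assembly, averaged 323 ± 60.5 CPM in trained and 250 ± 39.6 CPM in house control libraries (0.37, SE 0.14, adjusted p = 0.423). Abhd6 had 0.24 (SE 0.08, adjusted p = 0.414) and Nptx2 0.26 (SE 0.09, adjusted p = 0.414). In WT-labelled mice alone, Nptx2 had 0.48, Porcn 0.26, Frrs1l 0.50 and Neto1 0.53, each with an edgeR adjusted p of 0.502. In KO-labelled mice the smallest p-values were those of Abhd6 (0.22), Neto1 (0.42), Shisa8 (-0.74) and Abhd12 (0.13), each with an adjusted p of 1.

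Across the 12 libraries, the subunit genes fell into patterns that cut across the labels. Correlations of log2 CPM below are descriptions, since the libraries share tissue makeup and depth. Gria1 and Grik1 ran opposite to each other (Pearson r = -0.89, Spearman rho = -0.90), as did Gria1 and Gria4 (-0.72 and -0.62). Gria4 and Grik1 ran together (0.85 and 0.79), as did Gria2 with Gria3 (0.90 and 0.76) and Gria3 with Grik5 (0.90 and 0.85). After removing group means, r was -0.93 for Gria1 with Grik1, -0.93 for Gria1 with Gria4, 0.90 for Gria4 with Grik1, 0.89 for Gria2 with Gria3 and 0.91 for Gria3 with Grik5.

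The same libraries stood out in the marker lists. KO trained replicate 2 and KO house control replicate 2, with the highest sums of striatum, septum and neocortex markers, were also highest in Gria4, Grik1 and Grik3 and had the smallest excess of Gria1 over Gria2. Their dentate granule markers summed to 309 and 269 CPM, the lowest of the 12, against 409 to 1077 CPM in the others. Interneuron markers summed to 834 and 948 CPM in them, against 628 to 825 CPM in the others. WT house control replicate 3, next in striatum and septum markers at 643 CPM, also came next in Gria4 and Grik1. It lay below WT house control replicates 1 and 2 in Grik3, and its Gria1 was 1.31 times its Gria2. WT house control replicates 2 and 3, with the highest sums of choroid plexus markers and 11504 and 12114 CPM of oligodendrocyte markers, were the lowest in Grik5, Gria2 and Gria3. KO house control replicate 2, with the highest oligodendrocyte sum (13400 CPM), lay above both in these genes. So did WT trained replicate 3, with 7937 CPM of choroid plexus markers. The part of these tissue differences in the subunit levels was not tested beyond the left-out libraries given above.

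**Figure D5:**
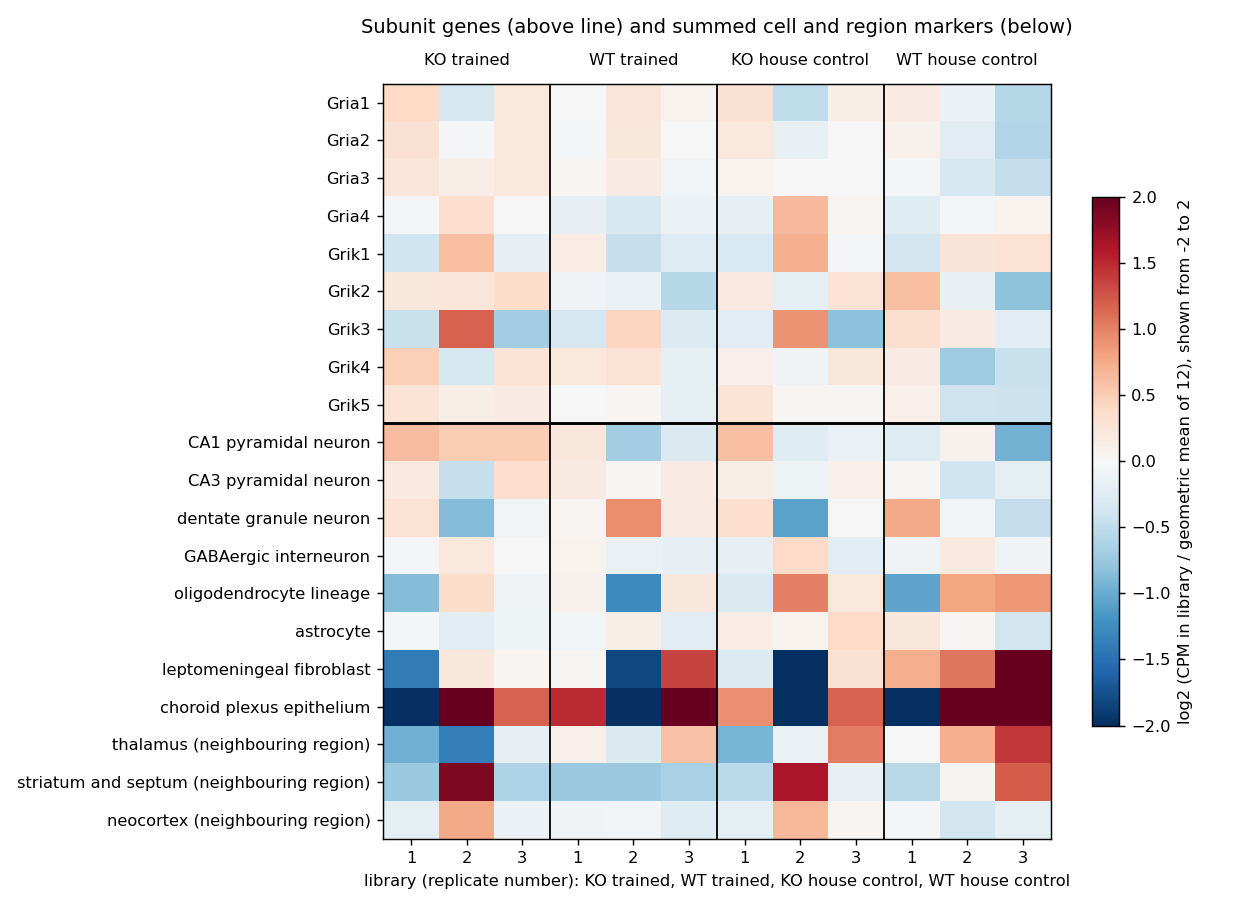
Log2 ratio of each library to the geometric mean of 12, with colour limits at -2 and 2, for the 9 subunit genes (above the line) and for summed markers of cell types and regions (below), by group and replicate. Replicate 2 of the KO trained and KO house control groups is red in Gria4, Grik1, Grik3 and the striatum and septum markers (1013 and 852 CPM), and WT house control replicate 3 is blue in Gria1, Gria2 and Gria3 and red in choroid plexus markers (15215 CPM).

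For each subunit gene, the genes most alike over the 12 libraries were taken from 14102 genes with a mean of at least 1 CPM, by Pearson r of log2 CPM. They were Kctd12 for Gria1 (r = 0.97), Dnal1 for Gria2 (0.98), Rab3a for Gria3 (0.98) and Gng12 for Gria4 (0.95). For the kainate receptor genes they were Cyp3a13 for Grik1 (0.98), Zfp526 for Grik2 (0.90), Lrrc49 for Grik3 (0.96), Kidins220 for Grik4 (0.98) and Adgrl1 for Grik5 (0.98). Next for Gria1 came St6galnac5 and Sez6l (0.97 and 0.96), and next for Grik3 came Rab33a and Lrrtm3 (0.96 and 0.95). The level of Cyp3a13 was near the low end of what was counted, with 0.360 to 2.49 CPM. The highest of so many correlations over 12 points are large by selection, and nothing about shared control is read from them.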

How the data were processed

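The authors deposited, per library, raw counts of reads per gene symbol. Per the submitters' processing notes, the tools included HTSeq 0.9.1, TopHat2 2.1.1 with Bowtie2 2.3.4.2, cutadapt 1.18 and DESeq2 1.18.1, on mm10. A strand setting for counting was not given in the sources used here. Per the labels' protocols, an NEBNext Ultra II kit turned polyadenylated RNA into libraries. A further 4 deposited tables, of the authors' own comparisons, hold, per the file headers, a mean signal of normalised counts, the log2 change with its error, the score of its test, and p-values before and after adjustment. Values from them are named as the authors'.

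From the counts, edgeR 4.0.16 in R 4.3.3 was fitted to all 12 libraries (4 group means, robust quasi-likelihood, TMM scaling, 8 residual degrees of freedom) after filterByExpr (minimum count 10, minimum total 15). The Benjamini-Hochberg adjustment ran over all 15622 genes tested. The test was checked on simulated data, with changes planted only in genes above a minimum mean count. Counts were drawn separately for each gene, so tissue differences that genes share were not simulated. In simulated house control comparisons the test called 0% of 1.2-fold, 28% of 1.5-fold and 80% of 2-fold changes. Averaged over both treatments it called 8%, 50% and 94% of them. Small differences between genotypes could therefore go uncalled. Alternatives were DESeq2 1.42.0, size factors by median of ratios, testing without the filter, the 6 compared libraries alone, animal number series (as a covariate, or the first alone) and left-out libraries. The 8 and 4 libraries of the 2 series follow the animal and library numbers in the titles. Lengths come from GENCODE vM21 on the same build. A count of 3 in a library was 0.109 to 0.152 CPM, and intervals cover spread between libraries. Chi-square per degree of freedom between libraries of a group ran from 14.9 to 105, so each was counted as a separate sample. Replicate numbers follow accession order and pair nothing.

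The members, gene lists, marker lists and left-out libraries were chosen with earlier results of these data known, so no list is independent evidence. All 9 subunit genes are named. Of the 40 associated genes, those past the threshold and up to 4 with the smallest p per comparison are named, with Adarb1 in the averaged comparison added after its values were seen. For likeness, the top genes by r are named. Left-out libraries in groups were the 2 with the highest striatum and septum sums and the 3 with the highest thalamus sums. Leaving out those 3 kept replicate 1 as the only WT house control.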

Additional observations from a re-analysis of the deposited data

Results flagged for a closer look

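Of 36 sets of 6 libraries examined for a single library far from the rest, 2 had one. Chance gives about 1 in 20 such sets, so this count is near that share, and the sets have libraries in common. Gria4 stood at 87.0 CPM in KO house control replicate 2, against 46.9 to 58.6 CPM in the other 5 house control libraries. Grik2 stood at 48.6 CPM in the same library, against 63.6 to 72.3 CPM in the other 5 libraries labelled KO. Libraries labelled WT lay on both sides of this Grik2 value. KO house control replicate 2 also had one of the highest sums of striatum and septum markers (852 CPM) and the lowest of dentate granule markers (269 CPM). The part of those transcripts in either value was not tested.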

How the results depend on the processing

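No paired analysis was possible because the labels give no replicate numbers and the numbers used here follow accession order. In the 7 comparisons, 0 of 9 subunit genes were called under each alternative, except 2 without WT house control replicate 1 for KO against WT averaged over both treatments (leave-one-out range 0 to 2). Of 364 values of single genes under alternatives, 346 kept direction and side of the threshold, 8 changed sign, 4 gained and 6 lost a call. For KO against WT averaged, the sign changed for Gria1 (-0.061 in the first series alone, -0.098 without KO house control replicate 3 and replicates 2 and 3 of the WT house controls), for Grik2 (-0.043) and Grik4 (-0.048) without the same 3 libraries, and for Grik1 (-0.17) and Grik3 (-0.57) without KO house control replicate 2 and KO trained replicate 2. For Grik3 the leave-one-out range was -0.26 to 0.31. The cause was not tested. The length of the longest transcript left 5 of the 9 ranks as they were. Counts of all genes called for that comparison were 90 by edgeR and 725 by DESeq2. The widest 95% interval of an averaged fold, with 6 libraries a genotype, was that of Grik3 (0.627 to 1.96).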
